A study of Homo sapiens with 12 samples.

Results

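Collagens are the main structural proteins of the extracellular matrix. This account covers all 44 protein-coding genes whose symbols have the form COL, a number, A and a number, out of 58302 genes counted in neural progenitor cells (NPCs) and their derivatives. RNA was sequenced in 12 samples of the human embryonic stem cell line H1, with 2 samples in each of 6 groups. The WT groups were WT NPC, WT NPC P4 (NPCs at passage 4) and WT-D28 (NPCs differentiated to day 28). The dKO groups, dKO NPC, dKO NPC P4 and dKO-D28, lacked both KDM6 histone demethylases, UTX (gene KDM6A) and JMJD3 (gene KDM6B), which remove methyl groups from lysine 27 of histone H3. The labels give no passage for the NPC groups without one in their name, and the study's text places its NPC transcriptomes at passage 2. In the study's methods the alleles were made with Cas9 and a drug-resistance cassette, and resistant clones were selected. NPCs were induced with 2 SMAD inhibitors on Matrigel, itself a basement membrane extract, and grown as spheres. For day 28, passage 2 NPCs were dissociated and plated on Matrigel, with GDNF, BDNF and cAMP in place of FGF2 and EGF. The dKO line therefore derives from selected clones, and a clonal difference and the genotype cannot be told apart. The study describes its RNA-seq as done in 2 repeats without saying whether these were separate cultures, so p-values measure the spread between these samples, which may be technical.

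A collagen molecule is a helix wound from several chains, either copies of the product of 1 gene or a fixed mixture from partner genes. Fibrillar collagens (types I, II, III, V, XI, XXIV and XXVII) make banded fibrils, basement membrane collagen IV makes a meshwork under epithelia and around vessels, network collagens VIII and X form hexagonal lattices, and transmembrane collagens XIII, XVII, XXIII and XXV are anchored in the cell membrane. FACIT collagens attach to fibril surfaces, beaded filament collagen VI links cells to matrix, the multiplexins XV and XVIII sit in basement membranes, and collagen VII makes anchoring fibrils. In developing brain, basement membranes line the pia and the vessels, and most fibrillar collagen is made by meningeal and vascular cells.

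Counts are given as CPM (counts per 1000000 counts, with library sizes corrected by the TMM method) and, where genes are compared with each other, as FPKM (CPM per kilobase of exon). Sample totals ranged from 756942 to 10601172 counts, with the lowest in WT NPC replicate 1, where 3 counts correspond to 3.86 CPM against 0.297 CPM in the deepest sample. These floors cover counting error only. Replicates of dKO-D28 stood further apart than those of any other group, with a chi-square of 12.5 per degree of freedom against 1.63 to 2.9. WT NPC replicates differed in the fibrillar genes, as given below. The targeted genes stayed detectable, with KDM6A at 27.3 to 60.4 CPM and KDM6B at 114.9 to 201.7 CPM over the samples. Counts were made over whole genes, so they do not check a deletion of part of a gene.

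In edgeR's quasi-likelihood test a call needed an unadjusted p of less than 0.05 with a change of more than 2-fold, the thresholds of the study's methods, and Benjamini-Hochberg adjusted p-values over all 13454 genes tested are given as adjusted p. With a mean of at least 20 counts, 29 of the 44 collagen genes were tested. COL24A1, with a mean count of 21.2, lay just inside that minimum and COL28A1, with 15.8, just outside. A gene high in only some groups could pass through those groups, so the counts of called genes are descriptions of the 29. The map of all 44 genes by sample shows the levels from which they come.

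**Figure D1:**
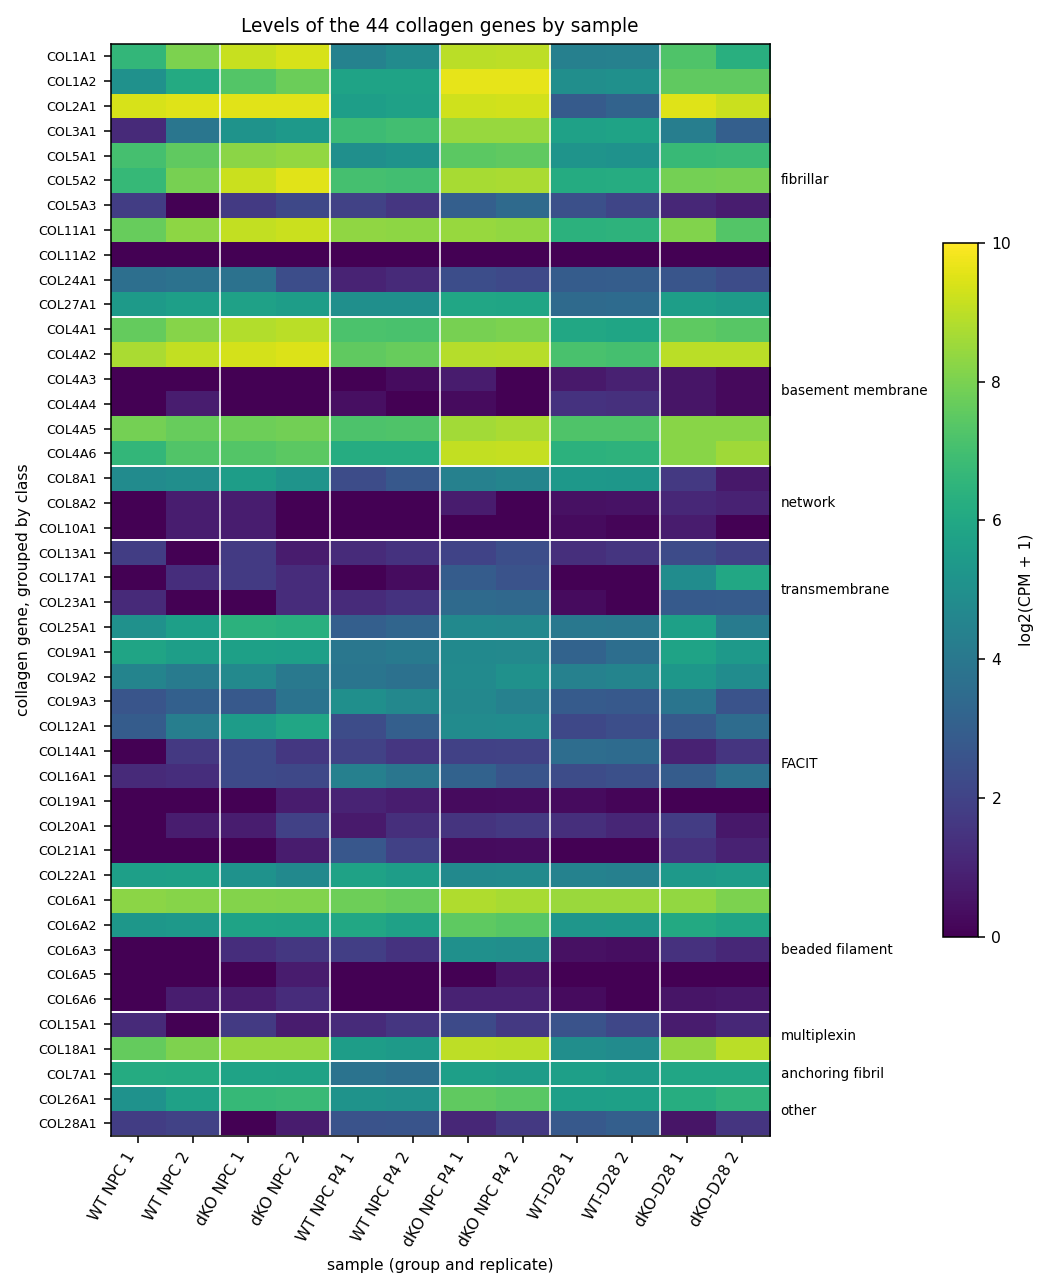
Heat map of log2(CPM + 1) for the 44 collagen genes, in rows grouped by class, in 12 samples, in columns grouped by genotype and stage. The COL1A1, COL1A2, COL2A1, COL4A6 and COL18A1 rows are brighter in dKO NPC P4 than in WT NPC P4, the COL11A1 row differs little, COL11A2 is at 0 throughout, and COL2A1 is dark in WT-D28 and bright in dKO-D28.

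More collagen genes were higher than lower in dKO cells at each stage. In dKO NPC against WT NPC, 8 of the 29 were called higher, where 2.59% of all genes tested were, and 4 of the 8 also had an adjusted p below 0.05. None was called lower, where 1.84% of all genes were, by edgeR or by DESeq2. At an unadjusted p alone, without the fold threshold, edgeR gave 2 lower genes, COL7A1 and COL22A1, and DESeq2 gave 1, COL22A1. At passage 4, 21 were called higher against a background of 11.1%, and 1, COL16A1, lower against 11.2%. At day 28, 18 were called higher against 12.4%, and 3 (COL8A1, COL14A1 and COL3A1) lower against 11.7%. All calls at passage 4 and day 28 also had an adjusted p below 0.05. The median log2 fold change of the 29 genes was 0.57 in NPC, 1.66 at passage 4 and 1.16 at day 28, beside medians of 0.00, 0.02 and 0.00 over all genes tested. These 3 comparisons share no sample. COL1A1, COL1A2, COL5A2, COL12A1 and COL6A3 were called higher in all 3, which is 62.5% of the genes called higher in NPC, 23.8% of those at passage 4 and 27.8% of those at day 28. Of these, COL6A3 had 2 and 3 counts in dKO NPC and none in WT NPC, and the day 28 log2 fold change of COL12A1 went down to 0.6 over the alternatives. COL3A1, COL8A1 and COL16A1 were called in opposite directions at different stages, and COL9A3 was called at none of the 3. The share of all genes with repeated or opposite calls was not computed, so these counts only describe the collagen genes.

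**Figure D2:**
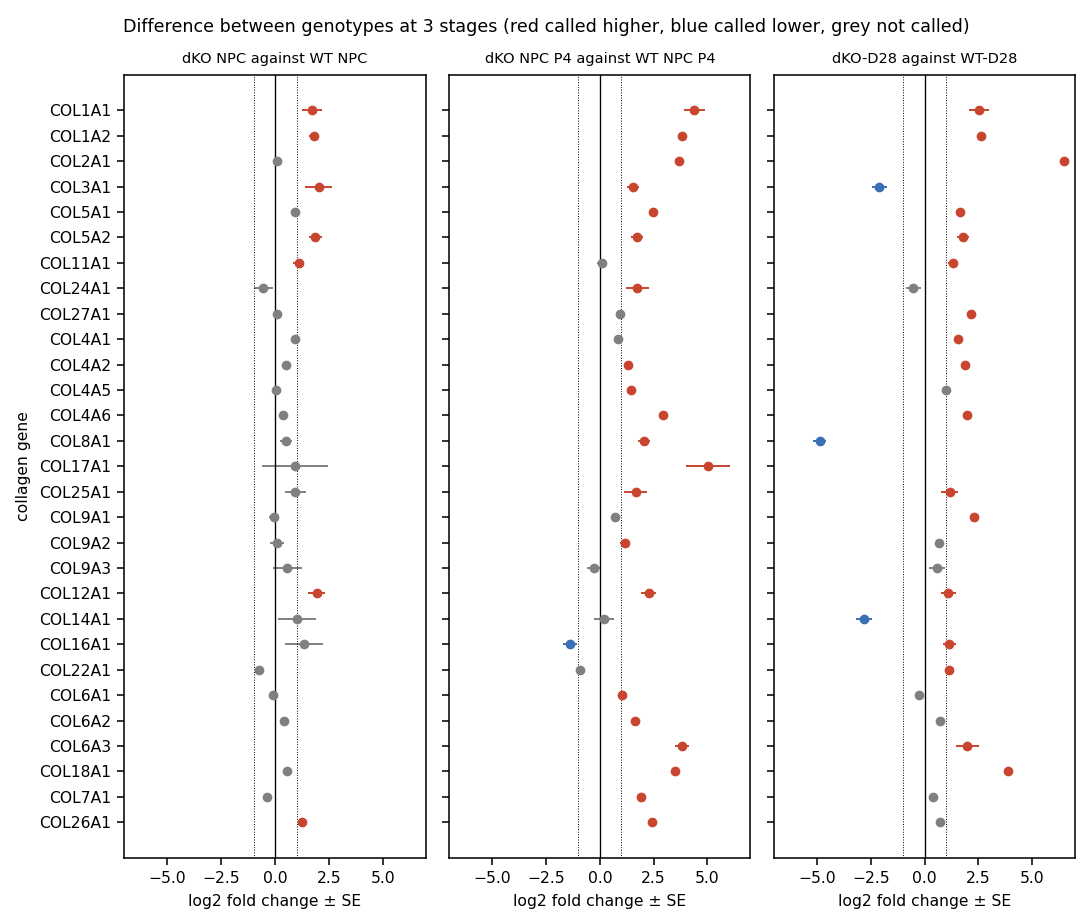
Log2 fold change between dKO and WT (x axis, bars are 1 SE) for the tested collagen genes (y axis) in NPC, at passage 4 and at day 28, with dotted lines at 2-fold. COL6A3 in NPC and COL17A1 at day 28 are not drawn because 1 group had no count. Most points lie to the right of 0 in the panels for passage 4 and day 28, and COL8A1, COL14A1 and COL3A1 lie to the left at day 28.

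The classes differed in size and in their pattern over the groups. Summed over its 11 genes, the fibrillar class stood at 168.4 and 237.9 FPKM in WT NPC and 365.4 and 412.4 in dKO NPC. In WT cells it was lower at both other stages, at 90.0 and 92.0 at passage 4 and 37.8 and 38.7 at day 28. In dKO cells it was at 391.1 and 395.3 at passage 4, between the dKO NPC values. At day 28 it was lower in dKO cells too, at 223.1 and 179.4. No dKO value overlapped a WT value of the same stage, and the ratio of dKO to WT was 1.94-fold in NPC, 4.32-fold at passage 4 and 5.24-fold at day 28. Basement membrane collagens showed 66.0 and 81.2 FPKM in WT NPC, 100.6 and 109.3 in dKO NPC, 39.5 and 40.8 in WT NPC P4, 132.8 and 138.4 in dKO NPC P4, 33.7 and 33.2 in WT-D28 and 95.4 and 104.0 in dKO-D28. Their ratios were 1.43-fold, 3.38-fold and 2.98-fold in the same order. Sums are dominated by few genes, so they carry no test, and with 2 samples against 2 the smallest two-sided p of an exact permutation test is 0.333.

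Network and transmembrane collagens were expressed at far lower sums. The network class held 2.87 and 3.47 FPKM in WT NPC, 5.23 and 3.78 in dKO NPC, 0.42 and 0.619 in WT NPC P4, 2.26 and 2.36 in dKO NPC P4, 4.26 and 4.18 in WT-D28 and 0.671 and 0.264 in dKO-D28. Of these 4 classes it was the one with a lower dKO sum at day 28, with a log2 ratio of -3.32. Transmembrane collagens held 4.21 and 5.77 FPKM in WT NPC, 10.2 and 9.45 in dKO NPC, 1.25 and 1.58 in WT NPC P4, 6.45 and 6.06 in dKO NPC P4, 1.91 and 1.85 in WT-D28 and 11.6 and 12.7 in dKO-D28. The gene behind the transmembrane sum differed between stages, with COL25A1 making 94.4% of it in dKO NPC and COL17A1 53.9% in dKO-D28. Of all collagen FPKM, fibrillar genes made 49.2% in WT NPC and 20.5% in WT-D28, but 58.2% in dKO NPC and 41.7% in dKO-D28.

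**Figure D3:**
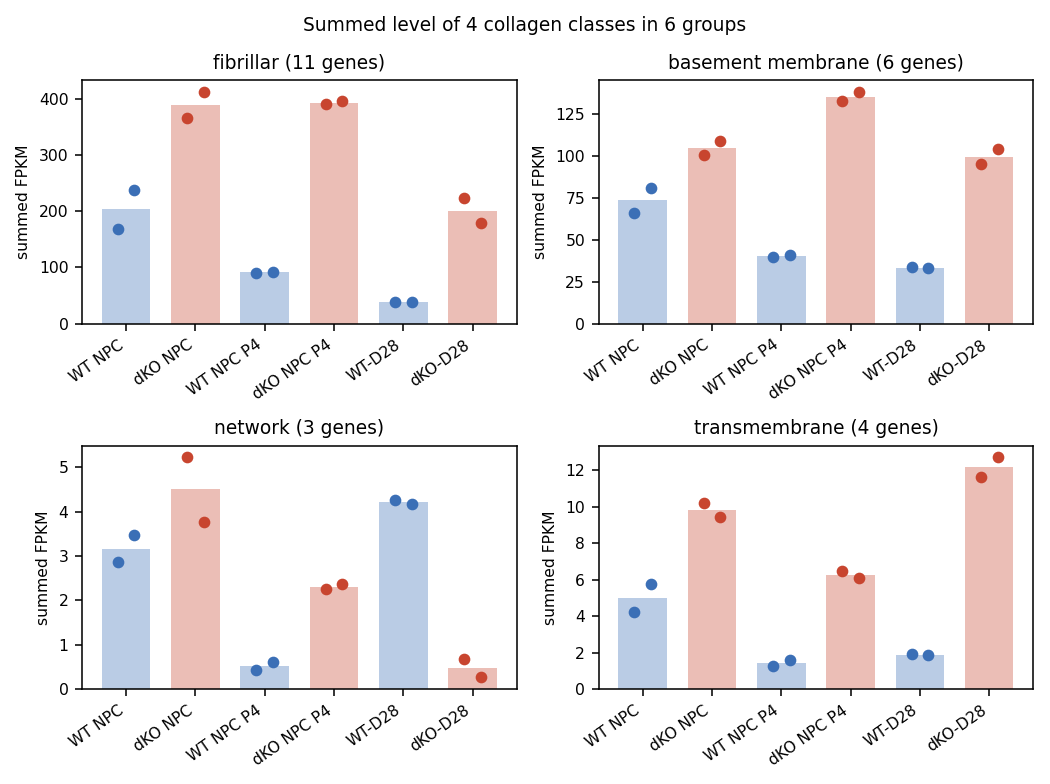
Summed FPKM (y axis, starting at 0) of the fibrillar, basement membrane, network and transmembrane collagens in the 6 groups (x axis), with points for samples and bars for group means, WT in blue and dKO in red. Each dKO pair lies above its WT pair, except for the network class at day 28, where WT-D28 lies at 4.26 and 4.18 and dKO-D28 at 0.671 and 0.264.

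COL2A1 (chr12:47972967-48004554, minus strand, hg38), the chain of cartilage collagen II that is also made in early neuroepithelium, was the collagen gene with the highest FPKM in WT NPC. It measured 675.2 and 733.6 CPM in WT NPC and 743.3 and 747.5 CPM in dKO NPC. In WT cells it was at 47.1 and 51.6 CPM at passage 4 and at 6.39 and 8.13 CPM at day 28, whereas dKO samples held 621.7 and 637.6 CPM and 729.3 and 582.4 CPM. The WT and dKO values overlapped at neither later stage. The log2 fold change between genotypes was 0.08 ± 0.12 (SE) in NPC, 3.67 ± 0.14 at passage 4 (adjusted p = 1.59e-11) and 6.48 ± 0.16 at day 28 (adjusted p = 2.04e-13).

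COL1A1 (chr17:50184101-50201632, minus strand) and COL1A2 (chr7:94394895-94431227, plus strand) encode the chains of collagen I, the main collagen of skin and bone. COL1A1 was at 97.7 and 260.7 CPM in WT NPC, 563.5 and 666.0 in dKO NPC, 20.7 and 27.6 in WT NPC P4, 504.0 and 518.2 in dKO NPC P4, 19.5 and 20 in WT-D28 and 151.6 and 78.7 in dKO-D28. COL1A2 was at 32.2 and 67.6 CPM in WT NPC, 158.3 and 215.3 in dKO NPC, 55.3 and 55.4 in WT NPC P4, 794.5 and 791.5 in dKO NPC P4, 29.6 and 31.6 in WT-D28 and 186.8 and 185.9 in dKO-D28. Neither gene overlapped between genotypes at any stage. COL1A1 was higher in dKO by a log2 fold change of 1.72 ± 0.45 in NPC (adjusted p = 0.12), 4.39 ± 0.50 at passage 4 (adjusted p = 0.000322) and 2.53 ± 0.46 at day 28 (adjusted p = 0.00293). For COL1A2 these were 1.82 ± 0.22 (adjusted p = 0.00124), 3.84 ± 0.19 (adjusted p = 1.55e-09) and 2.60 ± 0.18 (adjusted p = 3.4e-08).

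The balance of the collagen I chains shifted with stage in both genotypes. Collagen I usually holds COL1A1 chains in excess over COL1A2. Per exon length, COL1A1 exceeded COL1A2 by 3.67 and 4.62 times in WT NPC and by 4.29 and 3.71 times in dKO NPC. The ratio was 0.45 and 0.596 in WT NPC P4, 0.762 and 0.786 in dKO NPC P4, 0.795 and 0.76 in WT-D28 and 0.971 and 0.508 in dKO-D28, so COL1A2 had the higher FPKM in those 8 samples.

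COL3A1 (chr2:188974373-189012746, plus strand), the chain of collagen III found with collagen I in vessels and soft tissue, showed another pattern. Its CPM was 1.29 and 14.0 in WT NPC, 34.0 and 41.1 in dKO NPC, 115.8 and 123.7 in WT NPC P4, 351.5 and 348.2 in dKO NPC P4, 51.4 and 54.8 in WT-D28 and 18.4 and 7.22 in dKO-D28. It was the fibrillar gene called lower in dKO at day 28, and it was called higher at both NPC stages. The log2 fold changes were 2.03 ± 0.63 in NPC (adjusted p = 0.157), 1.54 ± 0.28 at passage 4 (adjusted p = 0.00162) and -2.10 ± 0.35 at day 28 (adjusted p = 0.000864). The NPC value rests on 1 count in WT NPC replicate 1 and 19 in replicate 2, and was 1.43 without the former and 4.84 without the latter, while the day 28 value was -2.86 without dKO-D28 replicate 1. Its neighbour COL5A2, on the opposite strand at a distance of 19151 bases, was called higher in dKO at day 28.

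COL5A1 and COL5A2 encode chains of collagen V, which sits inside collagen I fibrils and sets their width, and COL11A1 a chain of the related collagen XI. COL5A2 was at 102.9 and 248.9 CPM in WT NPC, 585.7 and 741.3 in dKO NPC, 131.0 and 125.0 in WT NPC P4, 413.3 and 426.7 in dKO NPC P4, 70.6 and 71.4 in WT-D28 and 241.7 and 246.8 in dKO-D28. It was called higher at the 3 stages, with log2 fold changes of 1.86 ± 0.30, 1.71 ± 0.28 and 1.78 ± 0.28. COL5A1 measured 132.5 and 188.7 CPM in WT NPC and 304.0 and 328.8 in dKO NPC, a log2 fold change of 0.95 that missed the fold threshold (adjusted p = 0.00217), and was called higher at passage 4 (2.49 ± 0.15) and day 28 (1.66 ± 0.13). COL11A1 was called higher in NPC (1.09 ± 0.25, adjusted p = 0.0573) and at day 28 (1.33 ± 0.24, lost without dKO-D28 replicate 1), but stood at 318.9 and 317.8 CPM in WT NPC P4 and 346.4 and 328.6 CPM in dKO NPC P4. COL27A1, a fibrillar collagen of cartilage, was called higher at day 28, at 47.8 and 42.4 CPM against 9.93 and 10.3. COL24A1 was called higher at passage 4, at 4.15 and 3.62 CPM against 0.987 and 1.27.

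COL5A3, the remaining collagen V chain, reached at most 10.1 CPM, in dKO NPC P4, and was not tested. COL11A2 was listed at 0 in all 12 samples. It lies at chr6:33162681-33192499, in the window of the histocompatibility genes from GABBR1 to DAXX (chr6:29555629-33323016), where 124 of 152 protein-coding genes (81.6%) were listed at 0 in every sample, against 11.9% of 19556 others. Among those at 0 were TUBB, CSNK2B and HLA-E, genes of broad expression. The level of COL11A2 was therefore not assessed, and why the window was listed at 0 was not tested.

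The 2 WT NPC samples differed in the genes called between genotypes at that stage. Replicate 2 was above replicate 1 for COL1A1, COL1A2, COL3A1, COL5A2, COL11A1 and COL12A1, and below both dKO NPC samples for each of them. Leaving out replicate 1 or 2 of WT NPC gave 7 or 10 genes called higher in dKO NPC. Without replicate 2 the log2 fold change became 2.65 for COL1A1, 2.54 for COL1A2, 2.69 for COL5A2 and 3.02 for COL12A1. Summed over 5 mural cell genes (markers of pericytes and smooth muscle), the same samples held 140.2 and 384.0 CPM, against 817.2 and 1076 CPM in dKO NPC. ACTA2, RGS5 and TAGLN, 3 of 4 tested, were called higher in dKO NPC (2.59% of all genes) and MYH11 had no count in any of the 4. Of 9 mesenchymal or fibroblast markers, which summed to 45.0 and 74.9 CPM in WT NPC and 151.7 and 176.9 in dKO NPC, PDGFRA, PDGFRB and LUM, 3 of 5 tested, were called higher, and DCN and TWIST2 had no count. The part of these cell types in the collagen differences was not tested. In bulk RNA, fewer cells of a type and less RNA per cell cannot be told apart.

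Collagen IV is built from 6 chains, encoded as 3 pairs of genes that start head to head. COL4A1 and COL4A2 form the molecule found in nearly all basement membranes, COL4A5 and COL4A6 one found in skin and smooth muscle, and COL4A3 and COL4A4 join COL4A5 in kidney and lung. The starts are so close that the 300-base promoter windows of partners, taken from RefSeq on GRCh38.p14 from 250 bases before to 50 bases after the start, overlap. The windows are shown because the paired genes can be read against each other below, and capitals mark the bases that lie in both partners' windows. The first is the COL4A1 window (chr13:110307108-110307407, minus strand), of which 226 bases are shared with COL4A2, and the other the COL4A6 window (chrX:108439409-108439708, minus strand), of which 121 bases are shared with COL4A5.
COL4A1: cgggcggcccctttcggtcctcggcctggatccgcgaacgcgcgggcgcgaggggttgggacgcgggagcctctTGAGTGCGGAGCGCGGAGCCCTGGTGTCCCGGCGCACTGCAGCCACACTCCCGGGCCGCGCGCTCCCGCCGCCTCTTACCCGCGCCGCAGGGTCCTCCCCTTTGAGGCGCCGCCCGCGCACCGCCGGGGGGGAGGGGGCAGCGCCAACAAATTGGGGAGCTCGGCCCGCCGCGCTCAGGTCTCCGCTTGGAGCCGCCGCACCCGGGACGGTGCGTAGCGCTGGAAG
COL4A6: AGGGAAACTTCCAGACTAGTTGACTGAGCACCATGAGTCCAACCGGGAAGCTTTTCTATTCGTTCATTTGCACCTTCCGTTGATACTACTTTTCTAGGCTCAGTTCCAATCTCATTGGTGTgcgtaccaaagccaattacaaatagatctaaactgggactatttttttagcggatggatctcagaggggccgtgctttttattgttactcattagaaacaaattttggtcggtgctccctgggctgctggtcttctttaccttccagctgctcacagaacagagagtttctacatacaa
The COL4A1 window is GC-rich, with 76.7% G and C and 45 CpG dinucleotides, while the COL4A6 window has 43.7% and 7. Their medians over 35116 windows of the table were 58.7% and 14. The starts lie 127 bases apart for COL4A1 and COL4A2 and 380 bases apart for COL4A6 and COL4A5. The GC box GGGCGG, on either strand, occurred in the COL4A1 window but not in the COL4A6 window, and in 45.0% of all windows. The CCAAT box, on either strand, occurred in both and in 34.6% of all. The table holds another COL4A6 window (chrX:108438373-108438672), which had 1 GC box and no CCAAT box.

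The partner genes mostly moved in the same direction, to different extents. COL4A1 measured 200.6 and 286.4 CPM in WT NPC, 455.6 and 498.1 in dKO NPC, 141.8 and 139.2 in WT NPC P4, 243.5 and 261.2 in dKO NPC P4, 62.9 and 58.4 in WT-D28 and 182.7 and 167.9 in dKO-D28. COL4A2 measured 419.3 and 536.1, 651.6 and 708.5, 185.0 and 206.2, 478.4 and 490.0, 140.5 and 131.8, and 492.0 and 499.3 CPM in the same groups. All dKO values lay above the WT values of their stage. At passage 4 COL4A2 was called higher (log2 fold change 1.31 ± 0.12, adjusted p = 1.63e-07) and COL4A1, at 0.84 ± 0.13, stayed under 2-fold (adjusted p = 6.24e-05). At day 28 both were called, with 1.53 ± 0.13 for COL4A1 and 1.86 ± 0.12 for COL4A2.

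COL4A6 (chrX:108155607-108439497) measured 97.7 and 153.5 CPM in WT NPC, 160.5 and 177.0 in dKO NPC, 72.4 and 71.6 in WT NPC P4, 538.4 and 548.7 in dKO NPC P4, 85.5 and 87.2 in WT-D28 and 298.5 and 382.7 in dKO-D28. COL4A5 (chrX:108439838-108697545) measured 237.9 and 204.9, 218.2 and 231.3, 147.1 and 152.8, 395.3 and 427.6, 151.0 and 151.7, and 298.8 and 301.7 CPM. The groups overlapped in NPC for COL4A5 and not for COL4A6. In dKO NPC P4 COL4A6 was the leading basement membrane gene by FPKM. Its log2 fold change was 2.92 ± 0.16 at passage 4 (adjusted p = 8e-10) and 1.98 ± 0.15 at day 28 (adjusted p = 1.95e-08), against 1.46 ± 0.10 and 0.99 ± 0.10 for COL4A5, the latter just under 2-fold. Per exon length COL4A5 exceeded COL4A6 by 1.59 and 1.67 times in WT NPC P4 and by 1.38 and 1.36 times in WT-D28, while the ratio was 0.574 and 0.609 in dKO NPC P4 and 0.783 and 0.617 in dKO-D28. COL4A3 and COL4A4, whose windows share 82 bases, reached at most 0.892 and 1.77 CPM, both in WT-D28, and were not tested.

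**Figure D4:**
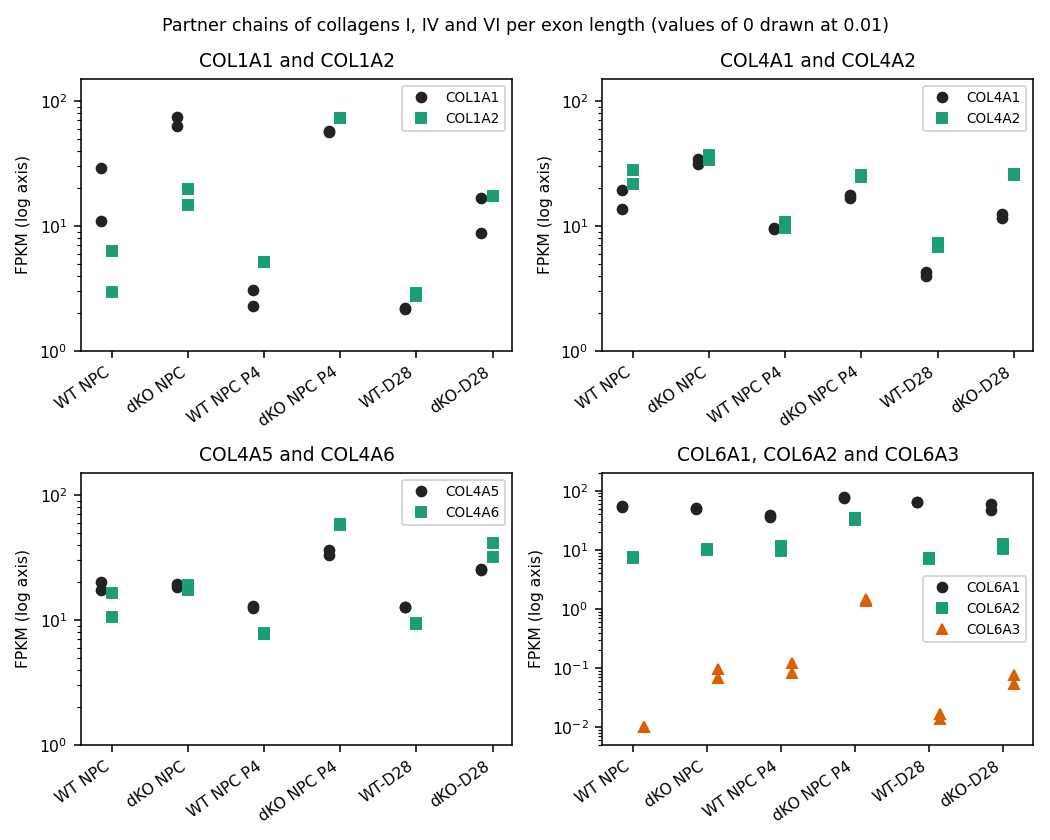
FPKM of partner chains (log axis, 1 point per sample) in the 6 groups (x axis) for collagen I, the collagen IV pairs and collagen VI, with values of 0 drawn at 0.01. COL1A1 lies above COL1A2 in both NPC groups, COL4A6 lies above COL4A5 in dKO NPC P4 and dKO-D28, and COL6A3 lies below its partners in every sample.

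Among network collagens only COL8A1 (chr3:99638475-99799226), a chain of collagen VIII of vessel walls and the cornea, was tested. It measured 27.0 and 29.4 CPM in WT NPC, 45.9 and 35.5 in dKO NPC, 3.95 and 5.82 in WT NPC P4, 19.8 and 22.2 in dKO NPC P4, 38.8 and 38.3 in WT-D28 and 2.15 and 0.57 in dKO-D28. It was called higher in dKO at passage 4 (log2 fold change 2.07 ± 0.28, adjusted p = 1.71e-05) and lower at day 28 (-4.88 ± 0.31, adjusted p = 2.79e-09), a value that was -5.99 without dKO-D28 replicate 1 and -4.14 without replicate 2, where 9 and 3 counts were found. Its partner COL8A2 and the growth plate collagen COL10A1 reached at most 1.19 and 0.74 CPM.

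COL17A1 (chr10:104031286-104085880, minus strand), a hemidesmosome component of basal epithelial cells, had the widest contrast of the transmembrane genes. It had no count in either WT-D28 sample and stood at 28.2 and 63.3 CPM in dKO-D28. Against the floor of 3 counts in the shallower WT-D28 sample (0.355 CPM), the mean of dKO-D28 was at least 128.7-fold higher (adjusted p = 1.65e-07). At passage 4, 48 counts in dKO and 1 in WT gave a ratio of 39.6, with an exact 95% interval of 6.78 to 1596 that covers counting error only. In NPC both genotypes were at or under 3 counts. The promoter window of COL17A1 (RefSeq, GRCh38.p14, chr10:104085831-104086130, minus strand) is shown because this gene had no count in WT-D28, with capitals for a TATAAA motif and for a CCAAT box on the opposite strand.
COL17A1: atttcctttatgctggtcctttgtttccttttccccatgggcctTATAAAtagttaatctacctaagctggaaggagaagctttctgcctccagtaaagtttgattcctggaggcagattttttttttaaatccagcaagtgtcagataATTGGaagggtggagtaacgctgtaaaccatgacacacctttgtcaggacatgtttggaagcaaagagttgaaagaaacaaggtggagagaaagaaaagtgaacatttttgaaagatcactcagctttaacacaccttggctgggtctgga
The window has 40.7% G and C and 1 CpG dinucleotide, and TATAAA, on either strand, occurred in 11.5% of all windows. No match of a motif overlaps another here, and a match describes letters only.

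COL25A1, a neuronal transmembrane collagen, measured 32.2 and 48.5 CPM in WT NPC, 84.3 and 77.3 in dKO NPC, 7.24 and 8.6 in WT NPC P4, 26.1 and 24.6 in dKO NPC P4, 15 and 14.7 in WT-D28 and 50.6 and 16.9 in dKO-D28. It was called higher at passage 4 (log2 fold change 1.66 ± 0.52, adjusted p = 0.0259) and at day 28 (1.16 ± 0.41, adjusted p = 0.0383). The day 28 call was lost when either sample of WT-D28 or replicate 1 of dKO-D28 was left out, with fold changes from 0.20 to 1.77 over all alternatives. COL23A1 and COL13A1, not tested, reached 9.92 and 4.35 CPM, both in dKO NPC P4.

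COL18A1 (chr21:45405165-45513720, plus strand), the multiplexin whose C-terminal fragment is endostatin, measured 200.6 and 268.8 CPM in WT NPC, 346.9 and 347.6 in dKO NPC, 46.7 and 42.8 in WT NPC P4, 518.8 and 493.1 in dKO NPC P4, 29.8 and 27.6 in WT-D28 and 337.0 and 503.8 in dKO-D28. The log2 fold change between genotypes was 0.55 ± 0.18 in NPC (adjusted p = 0.131), 3.5 ± 0.19 at passage 4 (adjusted p = 2.53e-09) and 3.88 ± 0.18 at day 28 (adjusted p = 7.81e-10). Of its exon bases, 18.5% are shared with SLC19A1 on the opposite strand, and the strand setting of the counting is not given in the sources used here. COL15A1, the other multiplexin, reached 4.85 CPM, in WT-D28.

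Collagen VI is assembled from 3 different chains, of which COL6A3 was near the floor in 5 of the 6 groups. COL6A1 was among the most abundant collagen transcripts, at 304.8 and 292.3 CPM in WT NPC, 280.3 and 275.2 in dKO NPC, 219.2 and 202.7 in WT NPC P4, 441.7 and 417.7 in dKO NPC P4, 357.0 and 357.7 in WT-D28 and 335.5 and 258.2 in dKO-D28. COL6A2 lay below it, at 51.1 to 62.9 CPM in WT NPC P4 and 183.2 and 169.8 CPM in dKO NPC P4. COL6A3 (chr2:237324003-237414328) had no count in WT NPC, 2 and 3 counts in dKO NPC, and 0.297 to 2.63 CPM in WT NPC P4, WT-D28 and dKO-D28. Only in dKO NPC P4 did it pass 3 CPM, at 31.6 and 30.0 CPM. All 3 genes were called higher in dKO at passage 4, with log2 fold changes of 1.03 ± 0.12 for COL6A1, 1.64 ± 0.13 for COL6A2 and 3.82 ± 0.31 for COL6A3. The COL6A1 call, just past 2-fold, was lost under 5 of 19 alternatives, with values down to 0.62 when GC content and length were corrected for. The COL6A3 call in NPC rests on 5 counts against 0, both groups at or under 3 counts per sample, so no fold is given. At day 28 its 13 counts against 6 gave a ratio of 4.24, with an exact 95% counting interval of 1.51 to 13.6. COL6A5 and COL6A6 stayed at or under 1.39 CPM.

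FACIT collagens split in direction. COL12A1, which decorates collagen I fibrils, measured 6.43 and 18.4 CPM in WT NPC, 45.1 and 59.2 in dKO NPC, 3.95 and 7.08 in WT NPC P4, 27.2 and 27.8 in dKO NPC P4, 3.55 and 4.26 in WT-D28 and 5.97 and 10.6 in dKO-D28, and was called higher at each stage. COL16A1 was called lower in dKO at passage 4 (7.85 and 5.07 CPM against 19.7 and 14.4) and higher at day 28 (6.45 and 12 CPM against 4.02 and 4.36). COL14A1 was called lower at day 28, at 0.955 and 1.9 CPM against 11.0 and 10.3 (log2 fold change -2.83 ± 0.38, adjusted p = 9.96e-06, and -3.43 without dKO-D28 replicate 2). Of the collagen IX genes, whose chains combine on cartilage fibrils, COL9A1 was called higher at day 28, at 54.7 and 41.6 CPM against 8.04 and 11.1, and COL9A2 at passage 4, at 26.8 and 32.4 CPM against 13.8 and 12.4, a call lost when GC content and length were corrected for. The day 28 calls of COL12A1 and COL16A1 were lost without dKO-D28 replicate 2, with log2 fold changes down to 0.60 and 0.61, and that of COL12A1 also without WT-D28 replicate 1. COL9A3 did not pass, with 24.5 and 20.3 CPM against 30.3 and 24.3 at passage 4. COL22A1, found at tissue junctions, was called higher at day 28 (41.8 and 45.1 CPM against 20.8 and 19.2). At the NPC stages its dKO values lay below the WT values without a call. They were 33.3 and 25.8 CPM against 48.9 and 49.9 in NPC, and 26.1 and 26.6 against 53.3 and 46.1 at passage 4. COL19A1, COL20A1 and COL21A1 reached at most 0.987, 2.79 and 5.59 CPM.

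Of the last tested genes, COL7A1, the anchoring fibril gene, was called higher at passage 4 (48.9 and 45.4 CPM against 13.2 and 11.6) and COL26A1, first described in reproductive organs, in NPC (102.8 and 110.1 CPM against 33.4 and 52.1) and at passage 4 (186.0 and 174.4 CPM against 33.9 and 32.6). COL28A1 reached 7.14 CPM in WT-D28.

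Most collagen genes called over differentiation were lower at day 28 in both genotypes. From WT NPC to WT-D28, 3 genes (COL3A1, COL14A1 and COL16A1) were called higher, against 12.9% of all genes, and 14 lower, against 11.5%, of which 2 and 13 had an adjusted p below 0.05. COL2A1 fell by 6.59 on the log2 scale, COL1A1 by 3.24, COL18A1 by 3.05, COL9A1 by 2.41, COL5A1 by 2.25 and COL27A1 by 2.18. COL17A1 is counted among the 14 with 2 counts in WT NPC and none in WT-D28, which allows no fold. Without WT NPC replicate 2 the log2 fold change of COL1A1 was -2.30, and the calls of COL5A2 and COL12A1 among the 14 were lost (-0.54 and -0.71). From dKO NPC to dKO-D28, 3 (COL17A1, COL16A1 and COL4A6) were called higher, against 4.01%, and 9 lower, against 3.14%, led by COL8A1 (fell by 4.96), COL12A1 (2.62 lower) and COL1A1 (2.42 lower). Of these, 2 and 7 had an adjusted p below 0.05, and COL8A1 was at -6.08 without dKO-D28 replicate 1 and at -4.22 without replicate 2.

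The difference of these steps, dKO minus WT, was tested in its own contrast within that fit. It was called above 0 for 8 genes, against a background of 12%, and below 0 for 3, against 11.1%, all with an adjusted p below 0.05. COL2A1 differed by 6.40 ± 0.19, COL18A1 by 3.33 ± 0.25, COL9A1 by 2.36 ± 0.29 and COL27A1 by 2.05 ± 0.23, genes that fell in WT cells and stood within 0.28 of no change in dKO cells. COL8A1 (-5.40 ± 0.43) and COL3A1 (-4.12 ± 0.70) differed the other way, and so did COL14A1, for which no size is given because WT NPC held 0 and 3 counts. The difference of COL8A1 was -6.5 without dKO-D28 replicate 1 and -4.65 without replicate 2, and that of COL3A1 was -3.53 without WT NPC replicate 1 and -6.94 without replicate 2. COL17A1 is among the 8, and its call was lost without WT NPC replicate 2. COL1A1, COL5A2 and COL12A1 had no called difference, at 0.82 ± 0.63, -0.07 ± 0.40 and -0.83 ± 0.52.

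**Figure D5:**
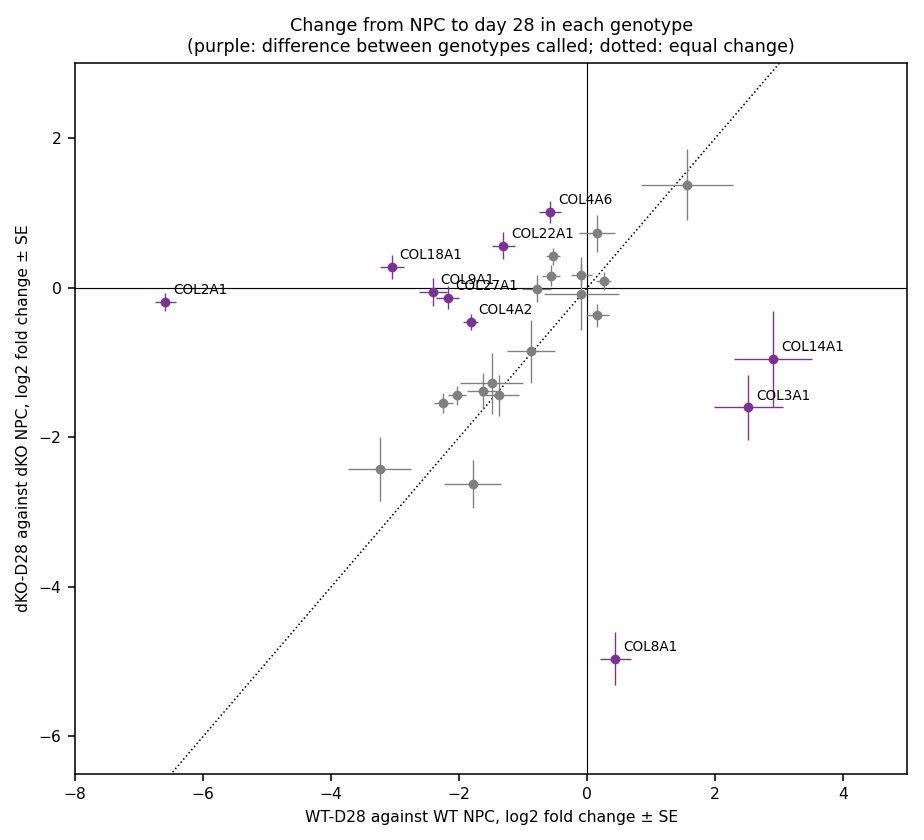
Log2 fold change from NPC to day 28 in WT cells (x axis) and in dKO cells (y axis), with bars of 1 SE, for the tested collagen genes with counts in the 4 groups. Purple points, named, are genes whose difference between genotypes was called. COL2A1 lies far left near 0 on the y axis, and COL8A1 lies low near 0 on the x axis.

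Over passage, lower calls prevailed in WT cells and higher calls in dKO cells. From WT NPC to WT NPC P4, 4 genes (COL16A1, COL9A3, COL3A1 and COL6A3) were called higher, against 10.3%, and 11 lower, against 9.49%, with COL2A1 (fell by 3.83), COL24A1 (3.37 lower), COL1A1 (2.94 lower) and COL8A1 (2.50 lower) in front. In WT NPC, COL6A3 had no count, COL16A1 1 and 2 counts and COL3A1 1 and 19 counts. COL6A3 stood at 2.63 and 1.77 CPM in WT NPC P4, near the level of 3 counts in WT NPC (3.86 and 2.2 CPM), so no fold is given for it. In dKO cells 6 (COL6A3, COL3A1, COL1A2, COL6A2, COL4A6 and COL9A3) were called higher, against 4.61%, and 2 (COL25A1 and COL24A1) lower, against 5.22%. The tested difference of the passage steps was called above 0 for 14 genes, against 9.72%, led by COL2A1 (3.59 ± 0.18), COL18A1 (2.95 ± 0.25), COL1A1 (2.67 ± 0.66) and COL4A6 (2.53 ± 0.23), and below 0 for 2, COL16A1 (-2.72 ± 0.91) and COL11A1 (-1.01 ± 0.34), against 9.57%. Without WT NPC replicate 2 the differences of COL1A1 and COL1A2 were 1.73 and 1.3, the WT change of COL1A1 was -2.0, and the lower call of COL24A1 in dKO cells was lost without dKO NPC replicate 1. An adjusted p below 0.05 was reached by 13 and 1 of these, by all calls in WT cells and by 5 and 1 of those in dKO cells.

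Markers of other cell types moved with these stages. Over 6 neuron markers, among them MAP2, DCX and STMN2, the sum was 1253 and 1115 CPM in WT NPC, 3953 and 4497 in WT NPC P4 and 3343 and 3337 in WT-D28, against 1004 and 922.4, 765.0 and 796.3, and 1029 and 596.7 in the matching dKO groups. Over 5 astrocyte markers, WT NPC P4 held 1809 and 1963 CPM and dKO NPC P4 27.7 and 35.1, most of it SLC1A3. WT NPC held 106.8 and 85.2 CPM and dKO NPC 37.7 and 24.4, and WT-D28 296.2 and 301.2 and dKO-D28 24.9 and 23.1. All 5 neuron and all 4 astrocyte genes tested were called lower in dKO at passage 4 (11.2% of all genes) and at day 28 (11.7%). In NPC, SLC1A3 was the 1 astrocyte gene called lower (1.84%), and no neuron gene was called. The mural list summed to 30.3 and 38.5 CPM in WT NPC P4, 313.8 and 289.0 in dKO NPC P4, 57.6 and 57.6 in WT-D28 and 110.4 and 110.1 in dKO-D28, and 4 and 2 of its 4 tested genes were called higher in dKO at these stages, where 11.1% and 12.4% of all genes were. The sum of the mesenchymal list was lower in dKO than in WT cells, at 124.4 and 116.4 CPM in WT NPC P4 and 96.9 and 112.0 in dKO NPC P4, and at 131.0 and 135.3 CPM in WT-D28 and 89.5 and 41.1 in dKO-D28. Its genes did not move together. Of 5 tested, PDGFRA was called higher and THY1 lower in dKO at passage 4, and PDGFRA and LUM higher and THY1 and PDGFRB lower at day 28, with list medians of 0.75 and 0.31 on the log2 scale. TWIST1 and DCN were at or under 5.59 CPM in all samples. Neural crest markers summed to 6.92 and 8.35 CPM in WT NPC P4 and 76.6 and 77.8 in dKO NPC P4, with SOX10 at or under 0.692 CPM in both. In WT-D28 they summed to 6.97 and 6.04 CPM, and in dKO-D28 to 22.0 and 76.5. Of 4 neural crest genes tested, PAX3, ETS1 and SNAI2 were called higher in dKO at passage 4, where 11.1% of all genes were. At day 28 these were PAX3, TFAP2A and SNAI2, against 12.4%, and none was called lower at either stage. Endothelial markers summed to 85.9 and 91.3 CPM in dKO NPC P4 and to 4.27 and 4.81 in WT NPC P4, while CDH5 stayed at or under 0.242 CPM in both. Their sums were 58.4 and 64.7 CPM in dKO NPC, 25.8 and 33.7 in WT NPC, 20.8 and 16.9 in dKO-D28 and 3.07 and 2.77 in WT-D28. Of these 4 markers only KDR was tested. It was called higher in dKO in NPC (2.59% of all genes), at passage 4 (11.1%) and at day 28 (12.4%). Choroid plexus markers summed to 3.62 and 2.03 CPM in WT NPC P4 and to 18.9 and 21.8 in dKO NPC P4, the latter the highest of any sample. At day 28 they summed to 2.84 and 2.77 CPM in WT cells and 15.6 and 8.74 in dKO cells. CLIC6, the 1 gene tested, was called higher in dKO at both stages, while TTR stayed at or under 1.19 CPM. NPC markers, SOX2 and NES among them, summed to between 3225 and 7409 CPM in all samples. At passage 4 they summed to 7409 and 7326 CPM in WT cells and 5238 and 5198 in dKO cells. Of 6 tested, SOX2 and FABP7 were called lower in dKO at passage 4, where 11.2% of all genes were. At day 28 PAX6 was called higher, against 12.4%, and FABP7 lower, against 11.7%. The part of all these markers in the collagen differences was not tested.

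Genes that make and modify collagen were followed as 5 lists. Of 13 prolyl and lysyl hydroxylases, which modify the chains before folding, 12 were tested. In dKO, 2 were called higher in NPC (2.59% of all genes), 5 at passage 4 (11.1%) and 1 at day 28 (12.4%), and none lower. The 5 were led by P3H2 (49.6 and 55.1 CPM against 3.95 and 5.57). P3H2 was also called higher in NPC and at day 28, while P4HA1 was at 52.4 and 51.7 CPM against 57.6 and 55.9 at passage 4. Of 9 genes of folding, glycosylation and export, all tested, none was called in NPC, 4 were called higher at passage 4 and 3 at day 28, against the same backgrounds, with list medians of 0.17, 0.45 and 0.82. SERPINH1, the collagen chaperone HSP47, was at 191.6 and 228.4 CPM in WT NPC, 346.9 and 424.3 in dKO NPC, 134.3 and 114.1 in WT NPC P4, 497.1 and 452.0 in dKO NPC P4, 113.7 and 105.3 in WT-D28 and 331.7 and 297.6 in dKO-D28. Its log2 fold change was 0.87 in NPC (adjusted p = 0.00307, under 2-fold), 1.94 at passage 4 (adjusted p = 6.22e-09) and 1.52 at day 28 (adjusted p = 4.71e-08).

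Of 13 genes for propeptide removal and cross-linking, 9 were tested. In NPC, 2 (TLL2 and LOXL2) were called higher in dKO (2.59% of all genes) and none lower (1.84%). At passage 4, 7 were called higher (11.1% of all genes) and 1, ADAMTS3, lower (11.2%). At day 28, 2 were called higher (12.4%) and 2, ADAMTS3 and TLL2, lower (11.7%), and the list median was 0.00, beside 1.41 at passage 4. The lysyl oxidase LOXL2 was called higher at all 3 stages, at 120.5 and 138.6 CPM against 43.7 and 69.8 in NPC, 83.8 and 86.7 against 6.58 and 5.31 at passage 4, and 40.8 and 40.1 against 9.58 and 8.82 at day 28. ADAMTS2, which trims fibrillar procollagens, was called higher at passage 4 and at day 28, at 20.1 and 20 CPM against 1.3 and 1.09. Of 7 receptors, 4 were tested. In NPC, 1 was called higher in dKO (2.59% of all genes) and none lower (1.84%). At passage 4, 2 were called higher (11.1%) and 2 lower (11.2%), and at day 28 1 each way (12.4% and 11.7%). The integrin chain ITGA1 was called higher in NPC and at passage 4, with 107.5 and 130.0 CPM against 1.97 and 4.3 at passage 4. ITGA2 was called lower at passage 4 and higher at day 28, and DDR2 lower at both. DDR1 lies in the same window as COL11A2 and was not assessed. Of 11 collagen-degrading proteases and their inhibitors, 8 were tested. In NPC, 1 (TIMP3) was called higher in dKO (2.59% of all genes) and 1 (CTSK) lower (1.84%). At passage 4, 4 were called higher (11.1%) and none lower (11.2%), and at day 28 3 each way (12.4% and 11.7%). The list medians were 1.14 at passage 4 and -0.09 at day 28. MMP2, MMP9 and MMP14 were called higher in dKO at passage 4 and at day 28, MMP2 at 285.2 and 260.7 CPM against 58.9 and 53.9 and at 90.5 and 65.8 CPM against 19.0 and 19.9. TIMP3, an inhibitor, was called higher in NPC and lower at day 28, at 16.5 and 14.8 CPM against 64.2 and 64.1, and TIMP2 and CTSK were also lower at day 28.

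Promoter windows were available for 32 of the 44 genes, with 44 windows in all. A GC box occurred in 54.5% of them, a CCAAT box in 31.8% and a TATA box in 18.2%, beside 45.0%, 34.6% and 11.5% of all windows. The median number of CpG dinucleotides was 17 in collagen windows and 14 in all.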

How the data were processed

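RNA was sequenced from H1-derived cells in 12 samples. The deposited files hold the authors' unnormalized read counts for 58302 Ensembl genes, mapped to hg38 with HISAT2 2.0.4, sorted with SAMtools 1.3.1 and counted with HTSeq 0.6.0 (DESeq 1.18.1 is also named in the submitters' processing notes). The annotation release and strand setting are not given in the sources used here. Symbols, coordinates and exon lengths came from GENCODE v44, which holds 98.7% of the genes and 99.8% of the counts. No row lacked a gene.

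Counts were scaled by TMM and tested in 1 fit of 6 group means with edgeR 4.0.16 in R 4.3.3 (quasi-likelihood, robust), keeping genes whose mean count reached 20, as in the study's methods, whose GC and length correction and DESeq test were replaced (the correction is an alternative). Genes were called at p below 0.05 and fold above 2, with Benjamini-Hochberg adjustment within each comparison over 13454 genes. FPKM is TMM-scaled CPM per kilobase of exon. SE is the log2 fold change divided by the root of F. The fit was tested on simulated data. DESeq2 1.42.0 was an alternative. Replicate numbers were checked for pairing: the correlation of same-numbered deviations over 15 pairs of groups ranged from -0.0555 to 0.182. The highest was for WT NPC P4 with dKO NPC P4. Counting noise also lowers such correlations, so this check cannot exclude pairing. The main fit used none, and a replicate block was run as an alternative. Library totals in place of TMM would shift all log2 fold changes by 0.16 in dKO NPC P4 against WT NPC P4. The shift would be -0.11 in WT-D28 and -0.12 in WT NPC P4, each against WT NPC, and at most 0.09 in the other comparisons of 2 groups. It was not computed for the differences between steps. The labels give no batch. Collagen genes and lists were chosen with earlier results of these data known. All 44 collagen genes were accounted for. Per-sample values were printed for the highest genes of a class, the most changed called genes and partner chains, and up to 4 called genes per list.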

Additional observations from a re-analysis of the deposited data

Results flagged for a closer look

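For 27 combinations of a gene and a step, the change in dKO cells was called different from that in WT cells. The test was of the difference itself (edgeR's quasi-likelihood contrast, dKO change minus WT change on the log2 scale). Such differences were also called among all genes tested, at the shares given with these contrasts in the Results. At each step the share of tested collagen genes called above 0 exceeded that of all genes. The share called below 0 did not. For the step from NPC to day 28 the difference was 9.61 for COL17A1, 6.40 for COL2A1, 3.33 for COL18A1, 2.36 for COL9A1, 2.05 for COL27A1, 1.87 for COL22A1, 1.59 for COL4A6 and 1.36 for COL4A2. It was -5.40 for COL8A1, -4.12 for COL3A1 and -3.86 for COL14A1. The values for COL17A1 and COL14A1 are fitted ones and no bounds, since WT-D28 had no count of COL17A1 and WT NPC had 0 and 3 counts of COL14A1. Without WT NPC replicate 2 they were 4.66 and -9.46, and that of COL3A1 was -6.94. The difference of COL8A1 ranged from -6.5 to -4.65 and that of COL3A1 up to -3.53 over the alternatives.

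For the step to passage 4 it was 3.59 for COL2A1, 2.95 for COL18A1, 2.67 for COL1A1, 2.53 for COL4A6, 2.29 for COL7A1, 2.29 for COL24A1, 2.02 for COL1A2, 1.56 for COL8A1, 1.54 for COL5A1, 1.42 for COL4A5, 1.2 for COL6A2, 1.18 for COL26A1, 1.13 for COL6A1 and 1.08 for COL9A2. It was -2.72 for COL16A1 and -1.01 for COL11A1. The differences of COL9A2 and COL11A1 had adjusted p-values of 0.0623 and 0.0629.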

How the results depend on the processing

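Each of 130 calls of a collagen gene in a comparison was recomputed under 19 alternatives. No call changed sign, 99 were kept under all 19, and 31 were lost under at least 1. The alternative that lost most, apart from an adjusted p below 0.05 (13 lost), was the replicate block together with correcting for GC and length (11), followed by that correction alone (10) and leaving out WT NPC replicate 2 (10). DESeq2 lost 2, a fit of only the compared samples 6, no filter on low counts 1, and the replicate block alone 1, the call of COL16A1 in WT-D28 against WT NPC, leaving 2 genes higher there. The block gave 8 genes higher in dKO NPC, 21 at passage 4 and 18 at day 28, as without it.

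Counts that moved by over 1.5 times were small. Genes higher in dKO NPC were 4 at an adjusted p below 0.05 (COL1A1, COL3A1, COL6A3 and COL11A1 were lost). Genes lower were 1 in NPC without the filter (COL28A1), and 0 to 1 when a replicate was left out. At passage 4 they were 2 with the GC and length correction, 2 with block and correction, 3 without the filter, and 1 to 2 on leaving out a replicate. At day 28 they were 7 without the filter (adding COL15A1, COL28A1, COL4A4 and COL5A3). Genes higher in WT-D28 than in WT NPC were 6 without the filter. Genes higher in dKO-D28 than in dKO NPC ranged from 1 to 3 on leaving out a replicate, the lowest without dKO-D28 replicate 2. Genes lower with passage in dKO cells were 1 with DESeq2, 1 with the GC and length correction, 1 with block and correction and 1 at an adjusted p (COL24A1 was lost each time), and 2 to 4 on leaving out a replicate. Differences below 0 between differentiation steps were 5 without the filter. Those between passage steps were 1 with the correction, 1 with block and correction, 1 with only the compared samples and 1 at an adjusted p (COL11A1 was lost), and 1 to 3 on leaving out a replicate. The cause was not tested, except that no filter tests more genes.

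Class sums kept their direction. With library totals as scaling, the log2 ratio of dKO to WT became 2.27 from 2.11 for fibrillar and 1.91 from 1.76 for basement membrane collagens at passage 4, and 1.66 from 1.57 for basement membrane and 2.78 from 2.69 for transmembrane collagens at day 28. Without the division by length, it became 1.60 for basement membrane collagens at passage 4, 2.42 for transmembrane collagens at day 28 and -1.28 from -1.13 for basement membrane collagens in WT-D28 against WT NPC. The total of WT NPC replicate 1, 756942 counts, limits what can be seen of genes under 3.86 CPM there.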
